A study of Mus musculus with 12 samples.

Results

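Hemin, the oxidised chloride form of heme, was given to cultured mouse macrophages, and the messenger RNA of the treated cells was compared with that of vehicle-treated cells. The comparison uses 6 of the 12 libraries of the study: 3 from wild-type bone marrow-derived macrophages kept in 15 µM hemin for 12 h and 3 from wild-type macrophages kept in vehicle for 12 h. All cells were grown from marrow for 7 days with the growth factor M-CSF in medium with serum, so the controls carry the same culture history. The other 6 libraries are wild-type cells in 120 µM 4-octyl itaconate (4-OI) for 15 h and Irg1 knockout cells in vehicle for 12 h. Both of these groups entered the fit and so the estimate of the spread. The labels name neither the vehicle nor the strain, sex or age of the mice, and they do not say whether the replicates are separate animals or cultures. The p-values therefore measure the spread between these libraries, which may be technical. A bone marrow culture is a population, and a change in its RNA cannot be told apart from a change in the share of cells that hold that RNA.

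Macrophages of the spleen and liver take up aged red cells and break down their heme. Heme oxygenase opens the heme ring and gives biliverdin, carbon monoxide and iron; the iron is stored in ferritin or leaves the cell through ferroportin. Free heme also binds the repressor BACH1, which then leaves the antioxidant response elements that the activator NRF2 uses. Iron itself sets the stability and translation of transferrin receptor and ferritin messages through iron regulatory proteins.

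Levels are CPM, read counts per library scaled to a common total with TMM factors, and differences are log2 fold changes of hemin against vehicle with their standard error (SE). "Called" means an adjusted p (Benjamini-Hochberg) under 0.05 in the edgeR quasi-likelihood test over 12148 genes, out of 16145 listed. In all 17.2% of the genes were called, 9.48% higher and 7.74% lower. Most of the differences were small: 79.3% of the called genes had a log2 fold change of under 0.5 in size, and 0.634% of all tested genes were called and at least 2-fold higher, 0.37% called and at least 2-fold lower. The share called rose with the level, from 5.6% of genes under 5 CPM to 34.6% of genes at 400 CPM or more. The share called in a gene list thus also depends on the levels of its members, which was not adjusted for. The split into 1152 higher and 940 lower genes depended on the scale; on FPKM with 1 added, 621 were higher and 1422 lower. Library totals were 9405112 to 13771110 expected counts with hemin and 10983784 to 22390882 with vehicle. The ranges of the 2 groups did not overlap in 30.7% of the tested genes and in 1968 of the 2092 called genes. Some genes were named by a rule that requires this, so its mention for a called gene is no further support. On the first principal component of the 6 libraries (40.7% of the variance) the hemin libraries lay from 14.3 to 16.5 and the vehicle libraries from -18.1 to -11.6.

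**Figure D1:**
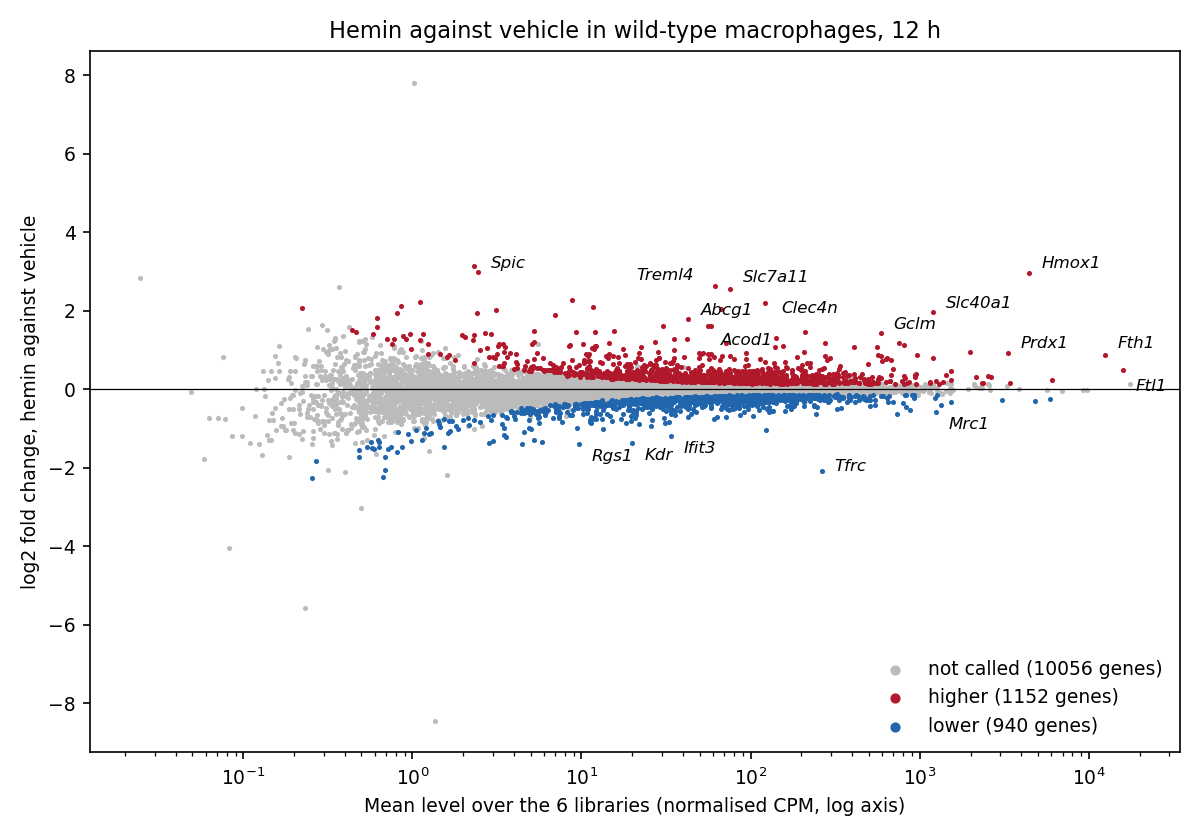
Each point is 1 of the 12148 tested genes, with the mean level over the 6 libraries (normalised CPM, log axis) across and the log2 fold change of hemin against vehicle upward; red genes were called higher, blue genes called lower and grey genes not called. Hmox1 stands alone at high level and high fold change, with Slc40a1, Fth1 and Prdx1 above 0 to its sides and Tfrc the lowest of the labelled genes.

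The enzyme that opens heme had the largest rise of any gene above 5 CPM. Hmox1, heme oxygenase 1, was at 966, 1087 and 946 CPM in the 3 vehicle libraries and at 7086, 7949.9 and 8506 CPM in the 3 hemin libraries (log2 fold change 2.97, SE 0.06, adjusted p = 4.63e-26). The lowest hemin library was thus far above the highest vehicle library. Slc48a1 (HRG1), which carries heme out of the phagolysosome, was at 443, 510.0 and 444 CPM with vehicle and 969, 1108 and 1066 CPM with hemin (log2 fold change 1.17, SE 0.06, adjusted p = 4.21e-17), again with no overlap. The next enzymes in the path moved apart. Blvrb, which can reduce biliverdin and flavins, was at 209, 231 and 226 CPM with vehicle and 310.1, 331 and 331 CPM with hemin and rose by 0.55 (SE 0.05), while the biliverdin reductase Blvra was at 122, 112 and 117 and 96.3, 100.5 and 100.5 CPM and fell by 0.24 (SE 0.05). Hmox2, the constitutive heme oxygenase, was not called (-0.13), though it passed as lower in 6 of 15 alternatives, among them without vehicle replicate 1 (-0.16). Not called either were the hemopexin receptor Lrp1 (0.02), the heme-binding Pgrmc1 (0.11) and the heme exporter Flvcr1 (-0.01). Cd163, the receptor for hemoglobin bound to haptoglobin, rose by 0.23 (SE 0.08), a call lost in 9 of 15 alternatives; without vehicle replicate 3 it was 0.19, without vehicle replicate 2 0.22, and without hemin replicates 1, 2 and 3 it was 0.22, 0.25 and 0.23. Of the 13 tested genes of heme breakdown and transport, 5 were higher and 1 lower (3 higher without hemin replicate 2), with a median of 0.108 against -0.006 over all tested genes.

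Iron genes moved in both directions, with export and storage higher and uptake lower. Slc40a1, ferroportin, the iron exporter, was at 501, 440.1 and 525 CPM with vehicle and 1823, 1839 and 2056 CPM with hemin (log2 fold change 1.96, SE 0.06, adjusted p = 3.67e-20). Tfrc, the transferrin receptor, which brings iron in, was at 437, 430.3 and 419 CPM with vehicle and 111, 94.6 and 98.8 CPM with hemin (log2 fold change -2.08, SE 0.06, adjusted p = 4.62e-26). For both genes the groups lay well apart, in opposite directions. The ferritin heavy chain gene Fth1 was at 9089.9, 9281 and 7795 CPM with vehicle and 15659.7, 16266 and 16279 CPM with hemin (0.88, SE 0.06), and the light chain gene Ftl1 at 13561, 13109.7 and 13308 CPM with vehicle and 17507, 20434 and 18205 CPM with hemin (0.49, SE 0.05). Both chains were higher in each hemin library than in any vehicle library. On the scale per transcript length, in which genes can be set beside each other, Fth1 went from 11151 ± 941 to 19769 ± 487 FPKM, Ftl1 from 16153 ± 303 to 21816 ± 1910.0 FPKM and Hmox1 from 684 ± 47.9 to 5144 ± 456 FPKM (SD, n = 3).

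Slc11a1 (NRAMP1), which moves metal ions out of the phagosome, rose by 0.53 (SE 0.05). The zinc and iron importer Slc39a8 (ZIP8) went from 26.3, 25.0 and 25.9 CPM with vehicle to 17.7, 13.1 and 15.8 CPM with hemin (-0.74, SE 0.10). The messages of iron regulatory protein 2 (Ireb2, -0.01), of the ferritinophagy receptor Ncoa4 (0.01) and of the iron chaperones Pcbp1 (0.02) and Pcbp2 (-0.03) were not called. Of the 22 tested iron genes 5 were higher and 2 lower. Their median was 0.048 and took either sign over the alternatives (-0.022 to 0.086), so the list as a whole had no direction. Among the 11 tested genes of heme synthesis the porphyrin transporter Abcb6 rose, from 23.2, 24.3 and 24.0 to 36.6, 41.8 and 37.6 CPM (0.70, SE 0.07); the other calls in that list were of 0.16 to 0.19 in size and did not hold over the alternatives.

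**Figure D2:**
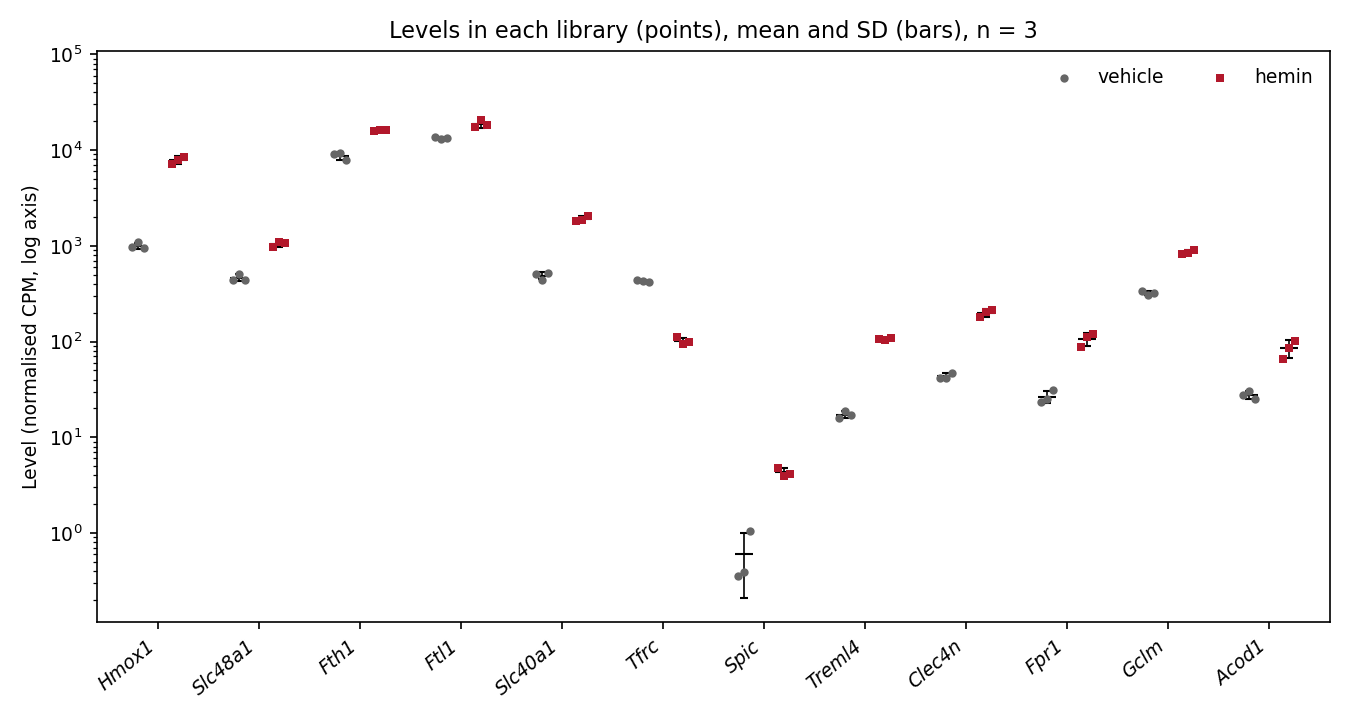
Normalised CPM (log axis) of 12 genes in each vehicle library (grey circles) and each hemin library (red squares), with mean and SD as bars. The vehicle and hemin points do not overlap for any of the 12. This also held for 1968 of the 2092 called genes and 30.7% of all tested genes. Tfrc is the 1 gene shown that was lower with hemin.

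Of the 12 tested regulators of this response (NRF2, BACH1, KEAP1 and their partners) 4 were higher and 1 lower (2 higher on FPKM). Nfe2l2 (NRF2) was not called (0.02, SE 0.05), nor were its inhibitor Keap1 (0.00), the ligase scaffold Cul3 (0.09) or Nfe2l1 (0.09). Bach1 rose by 0.17 (SE 0.05), which was not called without hemin replicate 3 (0.16) or on FPKM (0.10). Sqstm1 (p62), an autophagy receptor that binds KEAP1, was at 336, 391 and 361 CPM with vehicle and 707, 754 and 828 CPM with hemin (1.07, SE 0.05). The transcription factor gene Maf fell by 0.27.

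Antioxidant genes were higher far more often than lower. Over 5 lists (glutathione synthesis, thioredoxin, glutathione transferases, detoxification and NADPH supply), 38 of 85 tested genes were higher and 1 lower, with a median of 0.141. The lists were chosen with these data known, so this count is no independent support for the direction. Their promoters are shown for a form of the site that NRF2 and BACH1 share. Other forms of the antioxidant response element were not searched. The motif TGANTCAGC, a form of the MAF recognition element that also holds the shorter AP-1 site, was searched on both strands. The search ran from 250 bases before to 50 bases after the start for this motif. The motif was found in 5 of 75 antioxidant genes with a promoter entry (6.67%), all 5 among the 35 called ones (14.3%). It was in 1.29% of the 9697 tested genes with an entry and in 1.19% of all windows. Among all called genes the shares were 2.72% of those higher and 2.14% of those lower, against 1.05% of those not called. Among genes called with at least 2-fold changes it was in 15.2% of those lower (5 of 33) and 5.56% of those higher (3 of 54). The windows below are those of the called antioxidant genes that hold it before the start (RefSeq, build GRCm38.p6, read 5′ to 3′ on the strand of the gene, with each copy of the motif or its reverse complement in capitals).
Prdx1 (chr4:116685444-116685496, forward strand): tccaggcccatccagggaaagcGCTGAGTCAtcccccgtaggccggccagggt
Srxn1 (chr2:152105457-152105509, forward strand): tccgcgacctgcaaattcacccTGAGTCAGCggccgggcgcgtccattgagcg
Osgin1 (chr8:119437026-119437078, forward strand): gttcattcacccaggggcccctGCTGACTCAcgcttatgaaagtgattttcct
Gstp1 (chr19:4037956-4038008, reverse strand): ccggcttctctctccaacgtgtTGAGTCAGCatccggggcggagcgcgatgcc

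Prdx1, a peroxiredoxin that removes hydrogen peroxide, was at 2221, 2417 and 2263 CPM with vehicle and 4143, 4429.5 and 4619 CPM with hemin (0.93, SE 0.05). Srxn1, sulfiredoxin, which repairs oxidised peroxiredoxins, went from 182, 215 and 193 to 334, 347 and 385 CPM (0.85, SE 0.06). Osgin1, an oxidative stress response gene, went from 19.5, 22.4 and 21.2 to 36.1, 38.4 and 35.5 CPM (0.80, SE 0.08). All 3 genes had every hemin library above every vehicle library. Gstp1 rose by 0.80 (SE 0.08), but its expected count was whole in no library, so the value rests on reads split by estimate. The promoter table used here has no entry for Hmox1 or Slc40a1.

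Messages for the rate-limiting step of glutathione synthesis and for cystine import rose. Gclm, the modifier subunit of glutamate-cysteine ligase, was at 336, 308 and 321 CPM with vehicle and 830.0, 846 and 905 CPM with hemin (log2 fold change 1.42, SE 0.05, adjusted p = 3.79e-22). The catalytic subunit Gclc rose less, from 90.7, 85.5 and 90.8 to 131, 116 and 119 CPM (0.45, SE 0.05), and glutathione synthetase (Gss) rose by 0.66 (SE 0.07). Slc7a11, the cystine importer xCT, was at 22.6, 21.2 and 22.2 CPM with vehicle and 121, 125 and 142 CPM with hemin (2.56, SE 0.13). Its expected count was whole in no library either. In this list 7 of 11 tested genes were higher and none lower.

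Of 12 tested thioredoxin genes 6 were higher and none lower. Besides Prdx1 and Srxn1 these were Prdx6 (1.17), thioredoxin reductase 1 (Txnrd1, 0.77), glutaredoxin (Glrx, 0.58) and Txnip (0.35), which binds thioredoxin. Prdx2 (-0.04), a main peroxiredoxin of red cells, and Prdx4 (-0.04), that of the endoplasmic reticulum, were not called. Among 17 glutathione transferases 7 were higher. Gsta3 was at 13.4, 16.1 and 15.1 CPM with vehicle and 49.0, 39.6 and 49.7 CPM with hemin (1.62, SE 0.10), Gstm1 rose by 0.70, Gstm2 by 0.66 and Mgst1 by 0.39. Mgst2 (1.94) rose from a low level, 0.986 CPM with vehicle.

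Catalase (Cat), which breaks down hydrogen peroxide, was at 479.6, 522 and 509.6 CPM with vehicle and 1042, 1120.5 and 1157 CPM with hemin (log2 fold change 1.14, SE 0.05, adjusted p = 5.74e-20). It was among 11 of 30 detoxification genes called higher, 1 being lower. Ptgr1, a reductase of prostaglandins and lipid aldehydes, rose by 1.30 (SE 0.07), the aldo-keto reductase Akr1b8 by 1.09, S-formylglutathione hydrolase (Esd) by 0.75 and epoxide hydrolase Ephx1 by 0.65. Nqo1, the quinone reductase often used to read NRF2 activity, was at 20.1, 22.7 and 20.2 CPM with vehicle and 32.5, 35.3 and 41.9 CPM with hemin (0.80, SE 0.08). Aldehyde oxidase (Aox1) rose by 1.48 (SE 0.17). The selenium peroxidases Gpx1 (0.03) and Gpx4 (0.14) were not called. The enzymes that make NADPH for these reactions rose in 7 of 15 cases with none lower: G6pdx by 0.86 and Pgd by 0.79, the oxidative steps of the pentose phosphate pathway, malic enzyme Me1 by 0.93, Taldo1 by 0.36, Tkt by 0.27, cytosolic Idh1 by 0.38 and the NAD kinase Nadk by 0.38.

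**Figure D3:**
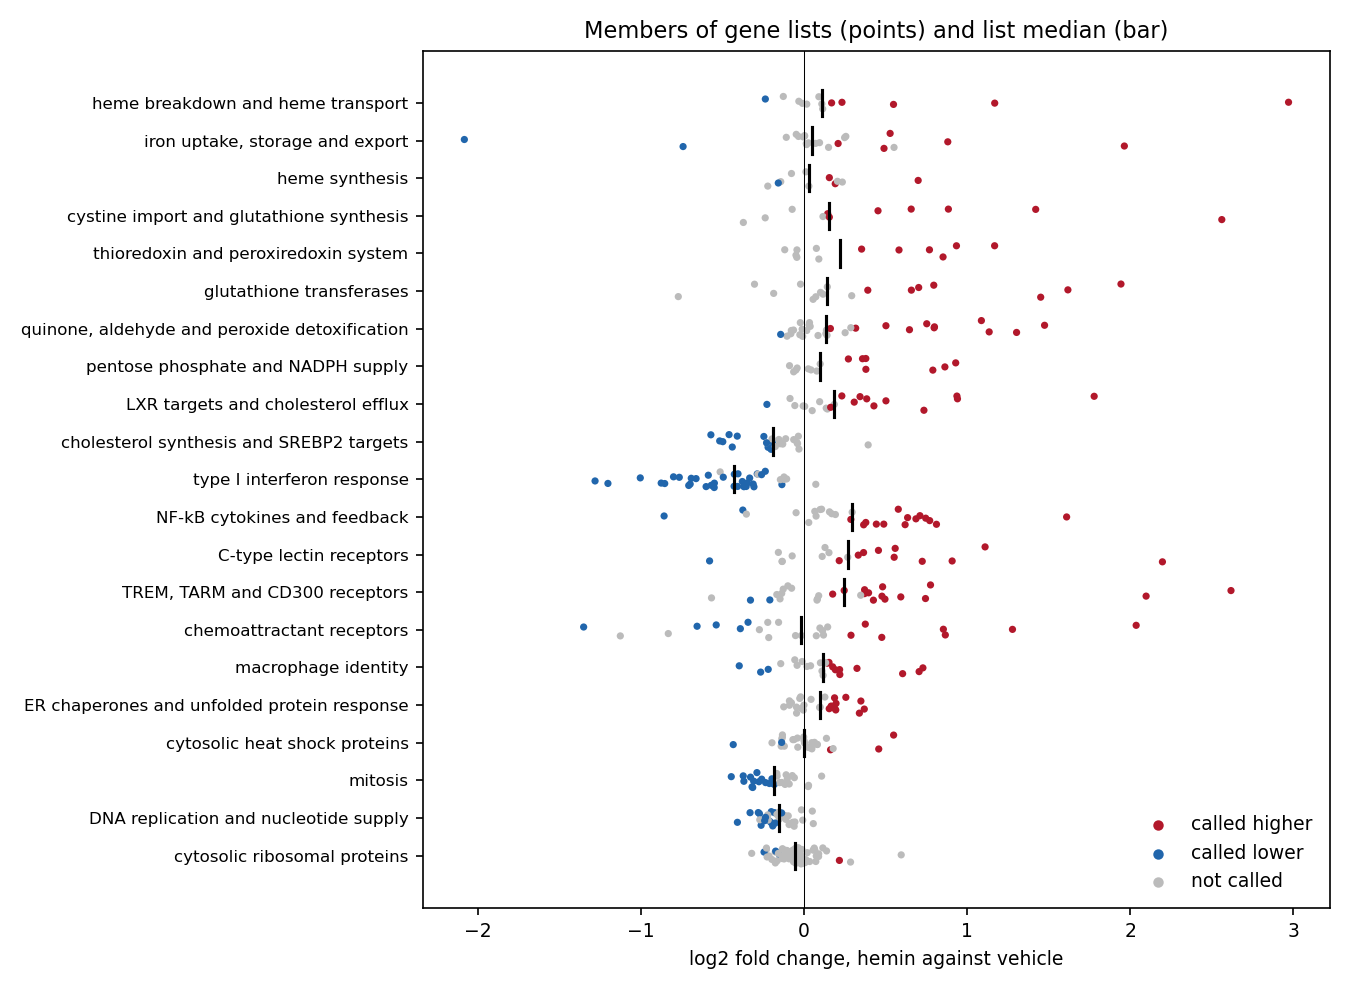
Log2 fold changes of hemin against vehicle for the tested members of 21 gene lists (points; red called higher, blue called lower, grey not called) with each list's median as a black bar. The medians of the interferon, cholesterol synthesis, mitosis and replication lists lie to the left of 0. No member of these 4 lists was called higher. The antioxidant and receptor lists extend to the right.

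Spic, the transcription factor needed for the iron-recycling macrophages of the splenic red pulp, was near 0 with vehicle. It was at 0.358, 0.389 and 1.05 CPM in the vehicle libraries and at 4.77, 3.98 and 4.17 CPM in the hemin libraries (log2 fold change 2.98, SE 0.30, adjusted p = 1.59e-09). Treml4, a receptor of myeloid cells that binds dead cells, was at 15.9, 18.7 and 16.9 CPM with vehicle and 106, 104 and 108 CPM with hemin (log2 fold change 2.62, SE 0.07, adjusted p = 3.12e-26), and its hemin values lay within a few CPM of each other. Marco, a scavenger receptor of marginal zone and tissue macrophages, was at 719.9, 614 and 706 CPM with vehicle and 1217, 1290.4 and 1202 CPM with hemin (0.86, SE 0.14). The Notch ligand Jag1 went from 27.3, 30.6 and 28.0 to 86.2, 85.5 and 90.2 CPM (1.60, SE 0.07). Gdf15, a secreted stress factor, was at 13.3, 12.5 and 11.6 CPM with vehicle and 6.36, 7.08 and 5.56 CPM with hemin and fell (-0.99). The sialic acid receptor Siglec1 (0.05) and the dead-cell receptor Axl (0.10) were not called. Of the 13 tested genes of the red pulp list, 5 were higher and 1 lower.

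Of the receptors for microbes and damaged cells, C-type lectins and TREM, TARM and CD300 receptors were more often higher than lower, and other families went both ways. Of 19 tested C-type lectins 10 were higher and 1 lower, with a median of 0.268 against -0.006 for all genes. Clec4n (dectin 2), which binds fungal mannans, was at 41.9, 41.9 and 46.8 CPM with vehicle and 179, 202 and 214 CPM with hemin (log2 fold change 2.20, SE 0.13, adjusted p = 2.61e-06). Clec4e (mincle), which binds mycobacterial glycolipid, went from 89.0, 110.3 and 97.1 to 191, 208 and 242 CPM (1.11, SE 0.16), and Clec4d, its partner, from 454, 452 and 450.3 to 726, 719.9 and 794 CPM (0.72, SE 0.05). In all 3 lectins the groups stood apart. Clec5a rose by 0.56, Clec4a2 by 0.55 and Clec4a1 by 0.46. Mrc1, the mannose receptor, moved against its family, from 1495, 1529 and 1463 CPM with vehicle to 1028, 1007 and 967 CPM with hemin (-0.58, SE 0.04).

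Of 27 tested TREM, TARM and CD300 receptors, paired activating and inhibiting receptors of myeloid cells, 14 were higher and 2 lower. Tarm1, which signals through the Fc receptor gamma chain, was at 3.64, 4.76 and 4.90 CPM with vehicle and 20.0, 17.2 and 19.8 CPM with hemin (2.10, SE 0.12). Trem1, which amplifies inflammatory signals, rose by 0.78 (SE 0.10), Pilrb1 by 0.59 and Cd300lb by 0.37, while the inhibitory receptor Sirpa fell by 0.33 and Trem2, the lipid receptor, was not called (0.08). Chemoattractant receptors went both ways, 7 higher and 5 lower of 25 (1 lower without hemin replicate 2, 2 without vehicle replicate 1, and 3 without hemin replicate 3 or vehicle replicate 2). The formyl peptide receptor Fpr1 was at 23.4, 25.2 and 31.1 CPM with vehicle and 88.7, 112 and 120.0 CPM with hemin (2.04, SE 0.16), and its relative Fpr2 rose from 21.4, 22.7 and 31.7 to 47.6, 60.5 and 70.2 CPM (1.28, SE 0.17). The prostaglandin E2 receptors Ptger2 (0.87) and Ptger4 (0.85) rose too. The serotonin receptor Htr2b fell from 8.22, 8.99 and 8.13 to 3.08, 3.47 and 3.37 CPM (-1.35, SE 0.16). The complement receptors C3ar1 (0.12) and C5ar1 (0.10) were not called. Of 24 scavenger and efferocytosis genes 5 were higher and 5 lower (2 higher on FPKM and 3 with upper-quartile factors). Marco, described above, had the largest rise of this list (0.86), and the scavenger receptor Msr1 rose by 0.31 (0.20 on FPKM with 1 added). The bridging ligand Gas6 (-0.44) and the receptor Stab1 (-0.28) were lower. Of 21 Fc receptor and complement genes 5 were higher and 5 lower (3 higher on FPKM, without vehicle replicate 1 or without hemin replicate 3), among them C3 (0.49; 0.29 on FPKM with 1 added) and the integrin Itgb2 (0.34) and, lower, the inhibitory Fc receptor Fcgr2b (-0.25).

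Of 27 tested cytokine and feedback genes that NF-kB drives 14 were higher and 2 lower, with a median of 0.295. Tnf was at 28.2, 29.1 and 30.1 CPM with vehicle and 45.5, 43.7 and 45.0 CPM with hemin (0.62, SE 0.07), and the adhesion molecule Icam1 went from 41.6, 45.7 and 45.9 to 66.9, 76.3 and 89.2 CPM (0.81, SE 0.09). The feedback inhibitors Tnip3 (0.77), Zc3h12a (0.63), Bcl3 (0.69) and Nfkbia (0.37) rose with them. Tnfaip3 (A20, 0.03), Nfkb1 (0.10) and Rel (-0.05) were not called. Acod1, which makes itaconate, was at 27.5, 30.5 and 25.0 CPM with vehicle and 66.0, 86.1 and 102 CPM with hemin (log2 fold change 1.61, SE 0.23, adjusted p = 0.00137). Its hemin libraries spread more widely than most, but none came near the vehicle libraries. Cxcl3, a neutrophil chemokine, rose from 0.320 to 1.30 CPM (1.93, SE 0.42). Ptgs2 (COX-2) fell, from 16.7, 13.2 and 13.2 CPM with vehicle to 11.7, 6.94 and 6.15 CPM with hemin (-0.86, SE 0.20; not called without hemin replicate 2, at -0.76), and the prostaglandin E synthase Ptges rose by 1.13 (SE 0.14). Of 11 CC chemokines none rose and 4 fell: Ccl4 (-0.82), Ccl12 (-0.95), Ccl7 (-0.48) and Ccl2 (-0.23). The Ccl2 call was lost without vehicle replicate 1 or 3 (-0.20 and -0.19) and without hemin replicate 1 or 3 (-0.20 and -0.23).

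Type I interferon genes fell as a group: 32 of 39 tested genes were lower and none higher, against 7.74% lower over all genes, with a median of -0.428. The number lower was 29 to 33 over the alternatives. Their promoters are shown for a site that many of them share. Paired copies of GAAA with 2 bases between them, the core of the interferon-stimulated response element, were searched on both strands and were present in 20 of 29 list members with a promoter entry (69.0%), against 3.98% of all tested genes with one and 3.44% of all windows. Among the called list members it was in 16 of 23 (69.6%), near the share of the whole list, so it did not mark which members were called. Over all genes the motif was in 9.63% of those called lower, 4.24% of those called higher and 3.43% of those not called. Those called lower include the called list members. The windows are of 4 genes of the list called lower (RefSeq, build GRCm38.p6, 5′ to 3′ on the strand of the gene, each whole copy of the motif or its reverse complement in capitals; copies can overlap).
Ifit3 (chr19:34583351-34583404, forward strand): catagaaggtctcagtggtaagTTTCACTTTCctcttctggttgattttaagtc
Ifit1 (chr19:34640763-34640816, forward strand): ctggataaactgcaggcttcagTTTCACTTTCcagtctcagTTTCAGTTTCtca
Isg15 (chr4:156200865-156200918, reverse strand): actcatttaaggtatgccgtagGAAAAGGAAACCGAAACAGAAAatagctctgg
Ifi213 (chr1:173599314-173599367, reverse strand): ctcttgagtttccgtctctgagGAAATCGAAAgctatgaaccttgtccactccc

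Ifit3, an RNA-binding antiviral protein gene, was at 45.7, 47.3 and 47.9 CPM with vehicle and 21.4, 18.6 and 21.3 CPM with hemin (-1.20, SE 0.07). Neither it nor its near copy Ifit3b (-1.28) had a whole expected count, so the 2 genes cannot be separated. Usp18, which removes the ubiquitin-like ISG15 and dampens interferon signalling, was at 19.4, 16.5 and 17.8 CPM with vehicle and 9.01, 8.63 and 9.00 CPM with hemin (log2 fold change -1.01, SE 0.11, adjusted p = 1.45e-08). Ifit2 went from 81.7, 71.5 and 74.6 to 50.0, 39.7 and 45.0 CPM (-0.77, SE 0.07) and Oasl2 from 162, 149.7 and 166 to 112, 105 and 108 CPM (-0.55, SE 0.06). In each of these genes every hemin library lay below every vehicle library. Ifi213 (-0.86) and Ifi44 (-0.88) fell, as did Isg15 (-0.80) and Ifit1 (-0.69), both named after their values were seen. Lower too were Herc6 (-0.66) and the RNA sensor Dhx58 (-0.55). Irf7 (-0.12), the factor that feeds the response forward, was not called.

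Genes of cholesterol efflux were more often higher and genes of cholesterol synthesis lower. Abcg1, which exports cholesterol to high-density lipoprotein, was at 19.8, 18.5 and 20.3 CPM with vehicle and 52.1, 75.0 and 71.1 CPM with hemin (log2 fold change 1.78, SE 0.10, adjusted p = 6.78e-12). Abca1, the exporter to apolipoprotein A-I, went from 201, 212 and 222 to 351, 354 and 353 CPM (0.74, SE 0.05), and lipoprotein lipase (Lpl) from 1357, 1338 and 1364 to 2623, 2444 and 2725 CPM (0.94, SE 0.05). Of 21 tested targets of the sterol sensor LXR 11 were higher and 1 lower (7 higher on FPKM with 1 added). The desaturase Scd2 rose by 0.94, Mylip, which degrades the LDL receptor, by 0.50 and Srebf1 by 0.34. Genes of cholesterol synthesis fell, 12 of 26 with none higher (8 to 17 over the alternatives). Hmgcs1, an early enzyme of the pathway, was at 108, 114 and 105 CPM with vehicle and 74.5, 73.6 and 73.2 CPM with hemin (-0.57, SE 0.05). Stard4 (-0.52), Idi1 (-0.50), Msmo1 (-0.46), Insig1 (-0.44) and Cyp51 (-0.41) fell as well.

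Cell division genes were slightly lower. Of 28 tested genes of mitosis 15 were lower and none higher (median -0.187; 9 lower without hemin replicate 2), and of 36 genes of replication 14 were lower and none higher (median -0.156; 22 lower on FPKM with 1 added). The spindle motor Kif11 was at 96.5, 96.6 and 89.8 CPM with vehicle and 76.1, 65.7 and 67.0 CPM with hemin (-0.45, SE 0.06). Top2a fell by 0.32, Cdk1 by 0.33, thymidine kinase Tk1 by 0.33 and the reductase subunit Rrm1 by 0.27. The mitotic checkpoint kinase Bub1b (-0.10) and the helicase subunit Mcm5 (0.05) were not called.

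Genes that answer protein damage were counted for the cytosol and the endoplasmic reticulum, and both counts depended on the scale. Of 27 tested cytosolic heat shock genes 18.5% were called, near the 17.2% of all genes, 3 being higher and 2 lower. On FPKM with 1 added 2 were higher and 5 lower. Hsp90aa1 (0.00) and Hsp90ab1 (0.03) were not called, Bag3 rose by 0.46 and the HSP90 co-chaperone Ahsa1 fell by 0.44. Of 25 genes of the unfolded protein response of the endoplasmic reticulum, 10 were higher and none lower (40% called). Without hemin replicate 2 there were 6 higher, and on FPKM 4 were higher and 1 lower. Syvn1, a ligase that clears misfolded proteins, rose by 0.37, Herpud1 by 0.35 and Manf by 0.26. The main chaperone Hspa5 (BiP) was not called (-0.02). Of 33 genes of the ATF4 stress response 7 were higher and 1 lower (5 and 5 on FPKM), 24.2% called against 17.2% of all genes. Atf4 itself was not called (0.05), Cebpb rose by 0.73 and Atf3 by 0.44, and Gdf15, described above, was the lower one (-0.99). Slc7a11 is also a member of this list. Of 24 tested p53 targets 4 were higher and 2 lower (2 and 4 on FPKM), 25% called against 17.2% of all genes. The p53 targets Cdkn1a (p21, 0.03) and Mdm2 (0.11) were not called.

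Among genes of energy metabolism, those of glycolysis were more often higher than lower. Of 27 glycolysis genes 10 were higher and 2 lower: the glucose carrier Slc2a1 went from 49.0, 49.2 and 47.2 to 79.8, 95.3 and 84.6 CPM (0.84, SE 0.06), Slc2a6 rose by 0.90 and pyruvate kinase Pkm by 0.33. Pyruvate carboxylase (Pcx), which refills the citric acid cycle, went from 8.16, 8.30 and 6.91 to 14.6, 17.0 and 16.4 CPM (1.03, SE 0.11). Of 13 tested genes of that cycle 4 were higher and none lower (1 higher on FPKM or without vehicle replicate 1). Succinyl-CoA ligase subunit Sucla2 (-0.01) and cytosolic malate dehydrogenase Mdh1 (0.10) were not called. Of 20 nuclear genes of the respiratory chain 1 was higher and 3 lower (median -0.055). The 20% called was near the 17.2% of all genes. Without hemin replicate 2 or vehicle replicate 1 only 1 was lower. The lowest adjusted p was that of the complex I subunit Ndufb9 (-0.31).

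Among macrophage identity genes, the transcription factor gene Irf8 went from 112, 127 and 124 to 183, 199.9 and 209 CPM (0.71, SE 0.05), and Spi1 (PU.1) rose by 0.32. Of the 23 tested identity genes 10 were higher and 3 lower (4 higher on FPKM). The cathepsin genes Ctsd (-0.01) and Ctss (0.04) were not called. Cd274 (PD-L1) rose by 0.92 (SE 0.11). The metallothionein gene Mt2 fell by 1.18, from 5.01, 4.50 and 5.07 to 1.80, 2.66 and 1.83 CPM, while the zinc importers Slc39a10 (0.53) and Slc39a7 (0.33) rose.

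Some of the largest changes fell outside these groups. Dnmt3l, a cofactor of the DNA methyltransferases of germ cells, was at 3.16, 2.98 and 2.97 CPM with vehicle and 14.4, 15.2 and 14.2 CPM with hemin (log2 fold change 2.26, SE 0.13, adjusted p = 1.69e-16), while its partner Dnmt3a fell by 0.30. Rgs1, which shortens G protein signalling, was at 12.7, 14.1 and 15.4 CPM with vehicle and 5.73, 5.31 and 4.90 CPM with hemin (log2 fold change -1.41, SE 0.14, adjusted p = 1.61e-09), and Rgs18 (-0.39) and Rgs10 (-0.31) were lower too. Ctla2b, a gene with homology to cysteine protease propeptides, fell from 186, 140.2 and 174 to 97.9, 73.1 and 72.2 CPM (-1.05, SE 0.15). Rnf144b, a ubiquitin ligase, fell from 39.3, 39.5 and 42.1 to 21.1, 25.4 and 20.2 CPM (-0.85, SE 0.08). Genes better known from blood vessels moved in both directions. Kdr, the VEGF receptor 2, was at 28.1, 30.9 and 26.8 CPM with vehicle and 11.1, 11.1 and 11.0 CPM with hemin (log2 fold change -1.38, SE 0.09, adjusted p = 2.94e-14), and Angpt2 fell by 0.79. The junction protein gene Esam was at 0.298, 0.692 and 0.262 CPM with vehicle and 4.35, 4.21 and 4.10 CPM with hemin (3.15, SE 0.26), the endothelin receptor Ednrb at 2.03, 2.90 and 4.37 and 8.59, 9.37 and 14.5 CPM (1.90, SE 0.30) and the protein C receptor Procr at 7.81, 7.70 and 9.44 and 20.4, 21.5 and 26.1 CPM (1.48, SE 0.10).

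Markers of 11 cell types were summed to show what else the cultures held. The 9 macrophage markers gave 26564 to 28591 CPM with hemin and 25126 to 25853 with vehicle (exact two-sided permutation p = 0.1, the smallest that 3 against 3 allows), and their summed FPKM overlapped (exact permutation p = 0.4). Most of the macrophage sum in CPM was Lyz2 (mean 18387.5 with hemin and 16781.7 with vehicle), which was not called. Of the 9 macrophage markers 3 were called higher and 1, Fcgr1, lower. The fibroblast markers overlapped between the groups, at 1555 to 2033 with hemin and 1705 to 2101 with vehicle (exact permutation p = 0.3). Of these Postn fell by 0.27, and the growth factor Fgf2 (-0.86) and the stromal chemokine Cxcl12 (-0.74), which such cells also make, fell more; the part of other cells in these falls was not tested. The neutrophil markers were at 137.9 to 148.2 with hemin and 115.1 to 126.0 with vehicle, mostly Mmp8 (0.20; 0.14 on FPKM with 1 added and 0.17 without vehicle replicate 1, neither called) and the G-CSF receptor Csf3r (0.38). S100a8, S100a9, Ngp and Ltf were detected, at up to 64, 54, 53 and 21 counts in a library, and not called, and Elane, Mpo and Camp had at most 6 counts. Megakaryocyte markers, nearly all from Pf4, overlapped, at 244 to 268 with hemin and 246 to 259.5 with vehicle. Osteoclast markers were at 40.2 to 44.2 with hemin and 38.4 to 39.2 with vehicle (exact permutation p = 0.1), and their summed FPKM overlapped (exact permutation p = 0.6). The endothelial markers were at 16.5 to 17.9 with hemin and 34.5 to 39.3 with vehicle, mostly Kdr; Cdh5 (-0.38) and Pecam1 (-0.17) were not called. Other sums were low and overlapped. T and NK cell markers were at 3.98 to 5.42 with hemin and 3.81 to 5.25 with vehicle, mostly Cd4 and Cd8a, with Gzma at 0 counts. B cell markers were at 1.54 to 2.07 and 1.61 to 2.42, from Cd79b and Ighm, with Cd79a and Ms4a1 at 0. Dendritic cell markers were at 0.318 to 0.878 and 0.562 to 0.656, with Zbtb46 and Xcr1 detected and Flt3 at 0, mast cell and basophil markers at 0.439 to 0.954 and 0.692 to 0.894, and erythroid markers at 0.293 to 0.369 and 0.173 to 0.437.

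Called genes also stood side by side along the chromosomes. Of the genes called higher, 14.3% had the next tested gene called higher too, against 9.5% of all tested genes, and of those called lower 14% had the next one lower, against 7.7%. There were 24 runs of at least 3 neighbours called higher and 16 called lower, with the order taken from RefSeq. Chromosome 6 held Clec4a2 (0.55), Clec4n, Clec4d and Clec4e in a row, all higher, with Cd163 in the same run. Chromosome 17 held Trem1, Trem3 (0.74) and Treml4 in a run of 5 genes, all higher, and chromosome 5 held Pilra (0.50), Pilrb1 and Pilrb2 (0.37). Chromosome 1 held Ifi208 (-0.98), Ifi207, Ifi204 (-0.50), Mndal (-0.42), Ifi211 (-0.41) and Ifi203 (-0.48), all lower; Ifi207 (-0.19) was not called without hemin replicate 2 (-0.15). The chemokine genes Ccl2, Ccl7 and Ccl12 also stood together. Many of the neighbours named so far are copies of each other, between which reads can be shared, and the part of this in the runs was not tested. Other runs hold genes of different families, such as a run of 5 on chromosome 2 with Acss2, Gss and Procr, all higher.

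The 4-OI libraries allow the hemin response to be set against that of another compound without the vehicle libraries. 4-OI is an ester of itaconate that enters cells and activates NRF2. Dose and hours differ along with the compound (15 µM for 12 h and 120 µM for 15 h), so these cannot be told apart. In this contrast 42.3% of all genes were called, 21.7% higher (2636 genes) and 20.6% lower (2500) with hemin; on FPKM with 1 added these were 3490 and 1726. Genes of heme and iron handling differed between the compounds. Tfrc was at 369.7, 334 and 357 CPM in the 4-OI libraries, above all hemin libraries (hemin against 4-OI -1.81, SE 0.06). Slc40a1 was at 1169.7, 1056 and 1106 CPM and Hmox1 at 4776, 4836 and 4762 CPM with 4-OI, both below all hemin libraries (0.78, SE 0.06 and 0.71, SE 0.06). Spic was at 0.537, 1.01 and 0.429 CPM with 4-OI, within or near the vehicle values given above (2.61, SE 0.31).

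Antioxidant genes were more often higher with 4-OI, 46 of the 85 against 14 that were higher with hemin. The lists differed: of the 30 detoxification genes 18 were higher with 4-OI and 4 with hemin, of the 11 genes of glutathione synthesis 7 and 1, and of the 15 NADPH genes 6 and 5. Slc7a11 was at 775, 775 and 823 CPM with 4-OI (hemin against 4-OI -2.61, SE 0.11), Srxn1 at 2298, 2282 and 2233 CPM (-2.68, SE 0.06) and Gclc at 639, 671 and 649 CPM (-2.43, SE 0.05), each above the hemin libraries. Acss2, which makes acetyl-CoA from acetate (-2.65), the carnitine transporter Slc16a9 (-3.64) and Ednrb (-3.40) were also lower with hemin than with 4-OI. Against vehicle Acss2 (0.89), Slc16a9 (0.76) and Ednrb (1.90) were higher with hemin. All 39 interferon genes were higher with hemin than with 4-OI: Ifit3, for one, was at 3.76, 3.29 and 3.86 CPM with 4-OI (2.50, SE 0.12), below the hemin libraries, which were below vehicle. All 28 mitosis genes were higher with hemin than with 4-OI as well.

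For several genes the 2 compounds lay on opposite sides of the same 3 vehicle libraries. The vehicle libraries were of 12 h and the 4-OI libraries of 15 h. Compound and hours thus cannot be told apart where 4-OI is set beside vehicle. Of the 26 cholesterol synthesis genes 23 were lower with hemin than with 4-OI, and Hmgcs1 was at 184, 196 and 178 CPM with 4-OI, above vehicle, with the hemin libraries below it (-1.34, SE 0.05). Clec4e was at 34.4, 32.8 and 36.4 CPM with 4-OI, below vehicle (2.64, SE 0.19), Tnf at 20.3, 21.1 and 21.3 CPM (1.10, SE 0.08) and Marco at 431, 436 and 417 CPM (1.53, SE 0.14), also below vehicle. Abcg1 was at 25.3, 27.1 and 28.7 CPM with 4-OI (1.31, SE 0.10) and Acod1 at 32.7, 42.0 and 32.1 CPM (1.25, SE 0.23). These 2 genes were above vehicle with both compounds, with 4-OI below all hemin libraries. By the naming rule, the genes furthest above 4-OI with hemin were Ccl12 (3.92), Ccl7 (3.89) and Slc2a6 (3.22). The NAD hydrolase Cd38 (2.93), Gbp5 (2.77) and the cholesterol 25-hydroxylase Ch25h (2.67) came next. Against vehicle, only Slc2a6 (0.90) and Cd38 (1.10) of these were higher with hemin. Ccl12 (-0.95), Ccl7 (-0.48), Gbp5 (-0.50) and Ch25h (-0.43) were lower with hemin than with vehicle. The Gbp5 call against vehicle was lost in 3 of 15 alternatives.

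**Figure D4:**
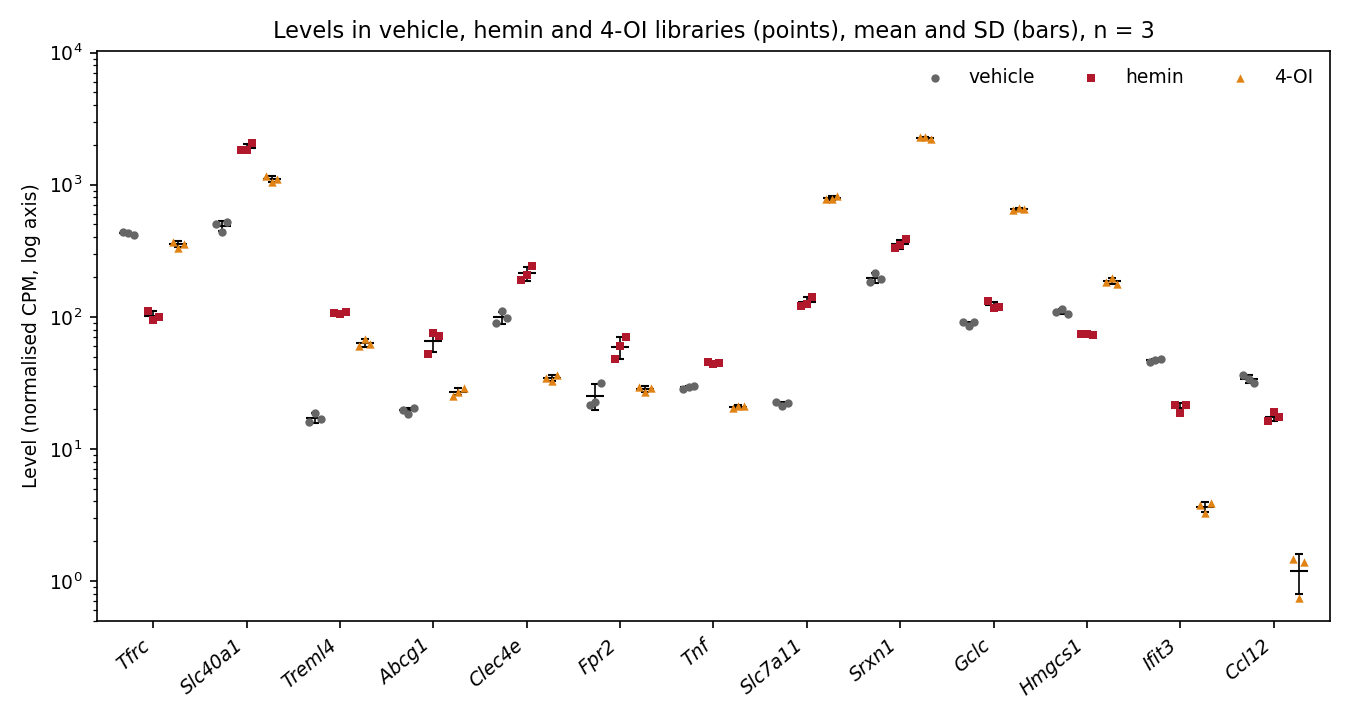
Normalised CPM (log axis) of 13 genes in each vehicle (grey circles), hemin (red squares) and 4-OI library (orange triangles), with mean and SD as bars, n = 3 a group. Tfrc was lowest with hemin, Slc40a1 and Treml4 were highest with hemin, Slc7a11, Srxn1 and Gclc were highest with 4-OI, and Hmgcs1, Clec4e and Tnf had hemin and 4-OI on opposite sides of vehicle.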

How the data were processed

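Each of the 12 libraries has 1 file. Per the file headers these give an expected count (an estimated number of reads, often not whole), an FPKM (scaled to transcript length and library total) and a length for each gene, all made by the authors. Per the submitters' processing notes the tools were HISAT2, StringTie, Bowtie2 and RSEM with the builds GRCm39 and mm39; versions, strand setting and library preparation beyond a standard MGI protocol are not given in the sources used here. Genes absent from a file were set to 0.

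Expected counts were rounded, filtered with filterByExpr, scaled with TMM and tested in 1 fit of all 12 libraries by the edgeR 4.0.16 quasi-likelihood test (R 4.3.3), with the adjusted p taken over all 12148 genes. The SE was taken from the F statistic and the log2 fold change. Biological variation (BCV) was 4.71%. On simulated data with 200 planted genes of 12148, the test of hemin against vehicle found 77% of those planted at 0.5 log2 and 92% of those at 1, with 11 false calls. Replicate libraries of a group differed by more than counting noise. Alternatives were RLE and upper-quartile factors, DESeq2 1.42.0, limma 3.58.1 on log2 FPKM with 1 or 0.1 added, other filters, only the groups compared, the replicate number as a block, each replicate left out and an added 2-fold limit.

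The members and the 59 gene lists (1203 symbols, 1104 matched, 10 of them through a synonym) were chosen with earlier results of these data known. Named were Hmox1, Slc40a1, Tfrc, Acod1 and Nqo1; genes from the 15 highest and 15 lowest fold changes among called genes of at least 5 CPM whose groups do not overlap, without provisional names; up to 8 called members of a list by adjusted p and 4 uncalled ones by level; the 6 highest and 6 lowest differences from 4-OI; and runs of at least 3 called neighbours. Not every gene this gives is named, and any other is marked as chosen after its values were seen. Reads of gene copies, overlapping genes and antisense genes may be counted together. Of the called genes 108 had no whole count. Promoters and gene order are from RefSeq (GRCm38.p6) and served only the counts of promoter motifs and of neighbouring genes.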

Additional observations from a re-analysis of the deposited data

How the results depend on the processing

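The total of called genes in hemin against vehicle stayed between 1537 and 2229 over scalings, tools, filters, replicate block and left-out replicates, and the 2-fold threshold left 122, 77 higher and 45 lower. On FPKM with 1 added 621 were higher and 1422 lower, and with 0.1 added 624 higher. The median of all genes was -0.05 and -0.07 there, against -0.01 on counts. Leaving out 1 library gave 1537 to 2086 genes. In hemin against 4-OI the 2-fold threshold left 682 genes, 364 higher and 318 lower, and other settings gave 4392 to 5295. A fit with the replicate number as a block called 2159 genes for hemin against vehicle (1183 higher, 976 lower) and 5181 against 4-OI (2660 and 2521). Same-numbered hemin and vehicle libraries did not deviate together (correlations 0.029, -0.003 and -0.028), so the numbers give no pairing.

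Of 176 called genes named for hemin against vehicle, 169 kept direction and call in all 15 alternatives. Genes with unstable calls were in part left unnamed, so this share does not describe all called genes. On FPKM with 1 added the fold changes of low genes were smaller, by construction: Spic 1.65, Esam 1.45, Ednrb 1.06, Cxcl3 0.82, Aox1 0.73, Ptges 0.75, Met 0.69, Cd28 -0.71, Ifi208 -0.61 and Fgf2 -0.46, and against 4-OI Cd38 1.73, Gbp5 1.22 and Spic 1.64. A value that was not called and lay within 2 SE of 0 was taken to have no direction. Depth limits low genes: 5.6% of those under 5 CPM were called, and their called changes were large (median 1.09 higher, -0.99 lower).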

Other observations

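Several genes with large changes belong to none of the groups described and were chosen after their values were seen. Cyb5a, cytochrome b5, a heme protein that passes electrons to desaturases and other enzymes of the endoplasmic reticulum, was at 111, 109.7 and 114 CPM with vehicle and 292, 311 and 314 CPM with hemin (log2 fold change 1.46, SE 0.05, adjusted p = 1.21e-22). Its groups were narrow and far apart. Cd1d1, which presents lipids to T cells, rose from 6.33 ± 0.717 to 17.7 ± 0.481 CPM (mean ± SD, n = 3; log2 fold change 1.45, SE 0.11). The secreted protease inhibitor gene Slpi rose from 20.2, 20.9 and 20.7 to 45.6, 50.5 and 53.5 CPM (1.28, SE 0.19) and the fatty acid receptor gene Gpr84 from 83.2, 96.3 and 91.1 to 163, 204 and 199 CPM (1.07, SE 0.12). The tyrosine kinase Fgr rose by 1.21 (SE 0.16), the prostacyclin receptor Ptgir by 1.07 (SE 0.11), the hepatocyte growth factor receptor Met by 1.10 (SE 0.13), the zinc importer Slc39a4 by 1.11 (SE 0.11) and pirin (Pir) by 1.01 (SE 0.10). Among lower genes, Cd28, better known as a T cell receptor of co-stimulation, went from 6.67, 5.49 and 7.26 to 2.65, 2.36 and 2.34 CPM (-1.38, SE 0.20) and the growth factor gene Fgf7 from 5.84, 6.87 and 6.03 to 2.33, 3.25 and 3.15 CPM (-1.09, SE 0.17).

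The files give a transcript length for each gene in each library. Among 6938 genes with at least 20 CPM, 579 had length ranges that did not overlap between hemin and vehicle, and 1 of these differed by at least 20%. This was Mtg1, a mitochondrial ribosome assembly factor, at 4044, 3778 and 4428 nucleotides with vehicle and 3080, 3260 and 2923 with hemin (-24.4%), seen after the data were searched and not tested.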
